A study of Mus musculus with 37 samples.

Results

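The enzymes that assemble triglyceride were followed across 4 diet and wheel groups in the mouse mammary gland. Members were all probe sets of the deposited table whose platform gene symbol is Gpam, Agpat2, Lpin1, Dgat1, Dgat2, Gpd1, Pck1 or Acsl1. This rule gave 13 of the 22690 probe sets and covered 6 of the 8 named genes: 4 probe sets for Gpd1, 2 each for Dgat2, Gpam, Lpin1 and Pck1, and 1 for Dgat1. Agpat2 and Acsl1 were not analysed here. All 6 genes were among the 9294 genes that passed a filter on dim signals, out of 12393 genes with a probe set of their own.

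The animals were female C57BL/6 mice, 9 weeks old at the start and observed for 6 weeks. The AL group ate ad libitum, the AL+EX group also had a running wheel, the CR group was under 30% calorie restriction, and the CR+EX group had both the restriction and a wheel. Restriction meant 70% of the AL calories, with every other nutrient given in full. Each array held RNA of 1 animal, taken from its left and right thoracic glands together, with 9 arrays each for CR+EX, CR and AL+EX and 10 for AL. The design asks what restriction and voluntary running, alone and together, did to gene expression in the gland.

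The adult virgin mammary gland is a thin epithelial tree within a large fat pad, so RNA of whole glands is rich in adipocyte transcripts. Triglyceride is built on glycerol 3-phosphate, which Gpd1 makes from a glycolytic intermediate and which Pck1 supplies from pyruvate-derived carbon in the route called glyceroneogenesis. Acyl-CoA synthetases such as Acsl1 activate fatty acids. Gpam adds the first acyl chain, acyltransferases such as Agpat2 the second, Lpin1 removes the phosphate to give diacylglycerol, and Dgat1 and Dgat2 add the last chain. The same fat cells also break triglyceride down, and part of the fatty acid released is esterified again.

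The arrays were already scaled by the authors to a trimmed mean signal of 500.165 to 500.23, and log2 values of any pair of arrays correlated between 0.869 and 0.984. Adipocyte markers were high in every group: the mean of 13 marker genes lay between 11.9 and 12.9 (log2) in AL, 11.8 and 12.5 in AL+EX, 11.5 and 12.8 in CR, and 11.8 and 12.7 in CR+EX. In 5 arrays (3 AL and 2 CR+EX) the Gapdh control probe sets had a 3' to 5' signal ratio above 2, up to 7.03, which can mark RNA that is degraded or copied incompletely towards its 5' end. In 15 arrays (3 of CR+EX and 4 of each other group) the mean of 10 B lymphocyte genes was 8.41 to 10.7 (log2), against 6.97 to 7.61 in the other 22. The animal numbers in the titles form 4 runs of 8, 11, 10 and 8 arrays, each with all 4 groups, and whether a run is a batch is not stated in the labels.

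Calorie restriction, averaged over both wheel states, went with higher signals of Dgat2, the diacylglycerol acyltransferase linked to the use of newly made fatty acid, and of Gpd1, the cytosolic glycerol 3-phosphate dehydrogenase. Dgat2 rose 1.33-fold and Gpd1 1.41-fold. The other 4 genes did not pass the test, although the estimated difference was positive for all 6. With 2 of 6 members called higher, the count stands against 4.19% of all genes called higher, 4.56% called lower and 8.75% called in either direction in this contrast. The median difference of the 6 genes was 0.23 (log2), against -0.02 over all 9294 genes, of which 44.8% had a positive difference. These values describe a list whose genes were chosen with earlier results known, and no test of the list was made.

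**Figure D1:**
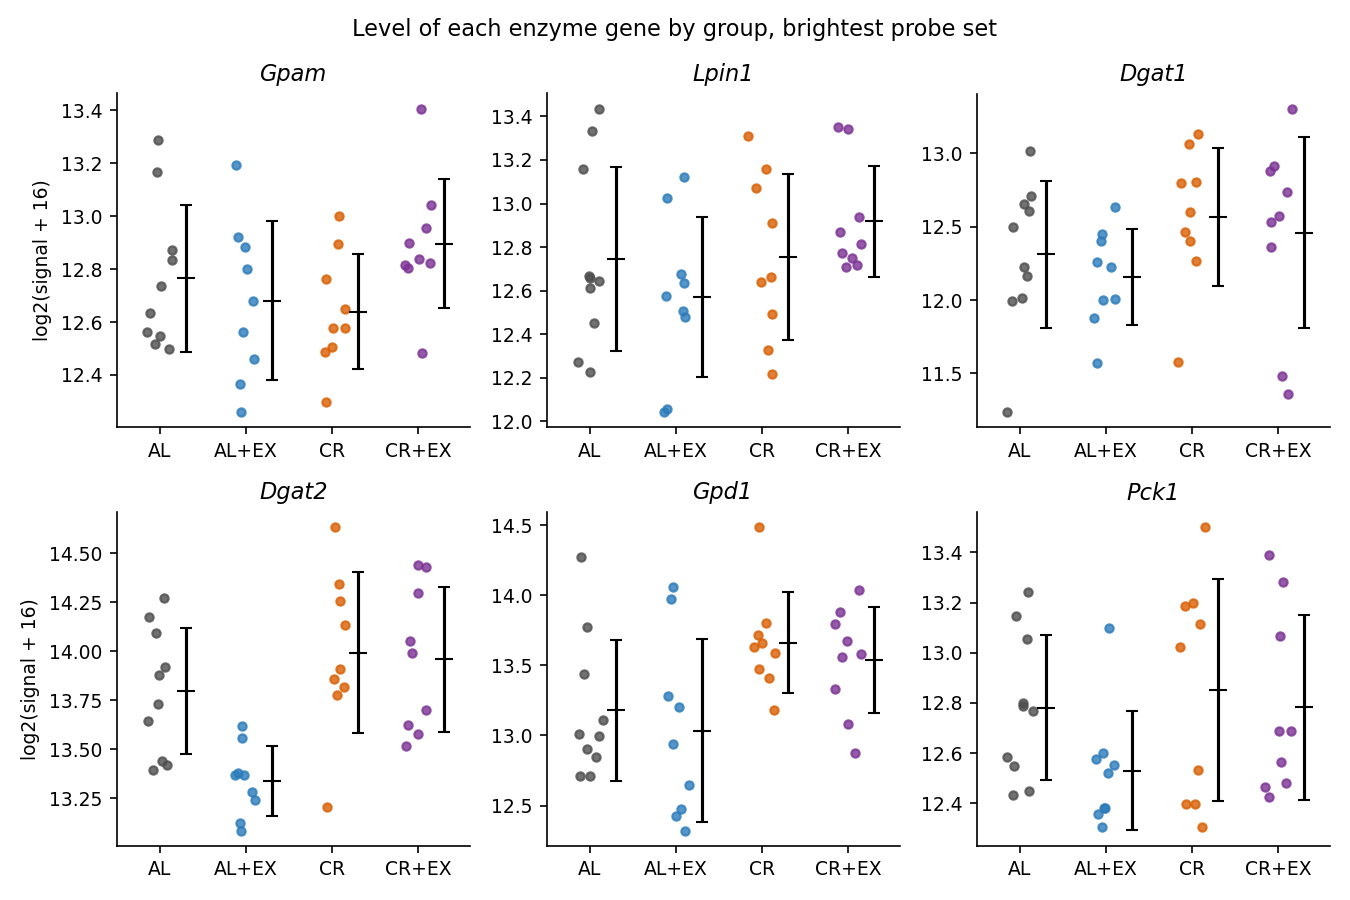
Signal of the brightest probe set of each of the 6 genes on each of the 37 arrays, as log2(signal + 16), by group (10 AL arrays, 9 in each other group). Points are arrays, and the bar beside each group is its mean ± SD. Dgat2 is lowest in AL+EX, where no array exceeds a signal of 12570, and most restricted arrays of Gpd1 lie above the unrestricted median of 8174.

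Dgat2 (probe set 1422678_at) had a lowest, median and highest signal of 10749.6, 14319 and 19779 in AL and of 8673, 10563 and 12570 in AL+EX. In CR the same values were 9423, 15378 and 25415, and in CR+EX 11721, 16251 and 22242. Of the 18 restricted arrays, 17 lay above the median of the unrestricted arrays (11106), yet the groups overlapped, with 5 restricted arrays above the highest unrestricted one. That pooled median lies below the AL median of 14319, which 7 of 9 CR arrays exceeded. All 9 CR+EX arrays exceeded the AL+EX median of 10563. The averaged difference was 0.41 ± 0.11 (log2 ± SE, 95% interval 0.19 to 0.63, limma adjusted p = 0.0143).

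Gpd1 (1448249_at) spanned 6690 to 19816 in AL with a median of 8213, and 5107 to 17033 in AL+EX with a median of 7832. It spanned 9271 to 22914 in CR (median 12650) and 7506 to 16808 in CR+EX (median 12235). Again 17 of the 18 restricted arrays exceeded the unrestricted median, and 7 of the 19 unrestricted arrays lay below the lowest restricted one, but only 1 restricted array was above the highest unrestricted one. The averaged difference was 0.49 ± 0.15 (95% interval 0.18 to 0.80, limma adjusted p = 0.0383).

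The Gpd1 call stood close to the threshold. It was lost without the 5 arrays of high Gapdh ratio (0.45, adjusted p = 0.097), with no filter on dim genes (adjusted p = 0.0512), and when the 4 probe sets of Gpd1 were averaged (0.27, adjusted p = 0.447). It was also lost when any 1 of 17 arrays was left out, namely AL replicates 1, 2, 7 and 8, AL+EX replicates 2, 4, 6 and 7, CR replicates 5, 6 and 8, and CR+EX replicates 3, 4, 6, 7, 8 and 9. In these fits the difference stayed between 0.44 and 0.49 and the adjusted p lay between 0.0506 and 0.0685. Dgat2 passed in all 37 fits that left out 1 array, with an adjusted p of at most 0.027.

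Pck1, the cytosolic enzyme that feeds glyceroneogenesis, had signals of 5520 to 9677 in AL (median 7012) and of 5050 to 8767 in AL+EX (median 5859). Its range was 5047 to 11573 in CR (median 8306) and 5482 to 10724 in CR+EX (median 6578). The 4 groups overlapped over most of their range, and in CR the arrays split by run of animal numbers: replicates 1 to 4, of the first 2 runs, lay between 5047 and 5910, and replicates 5 to 9, of runs 3 and 4, between 8306 and 11573. The averaged difference of 0.16 ± 0.11 did not pass (limma adjusted p = 0.398).

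Gpam, the mitochondrial glycerol 3-phosphate acyltransferase that commits the acyl chain to glycerolipid, had medians of 6576 in AL, 6546 in AL+EX, 6102 in CR and 7301 in CR+EX. Its signals ranged from 4890 to 10834 over all arrays. The averaged difference was 0.04 ± 0.09 with a 95% interval of -0.13 to 0.22 (limma adjusted p = 0.814), the narrowest interval among the 6 genes.

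Lpin1, the phosphatidate phosphatase that yields diacylglycerol, had medians of 6416 in AL, 6086 in AL+EX, 6477 in CR and 7176 in CR+EX. All 9 arrays of CR+EX lay above the AL+EX median, from 6683 to 10445, while AL+EX spanned 4203 to 8893. The averaged difference was 0.18 ± 0.12 (limma adjusted p = 0.365).

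Dgat1, the second diacylglycerol acyltransferase, had medians of 5261 in AL, 4766 in AL+EX, 6184 in CR and 6060 in CR+EX. Its lowest signals were 2399 in AL and 2615 in CR+EX, both on arrays of high Gapdh ratio, and its highest was 10086 in CR+EX. The averaged difference of 0.28 ± 0.16 did not pass (95% interval -0.04 to 0.59, limma adjusted p = 0.285).

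**Figure D2:**
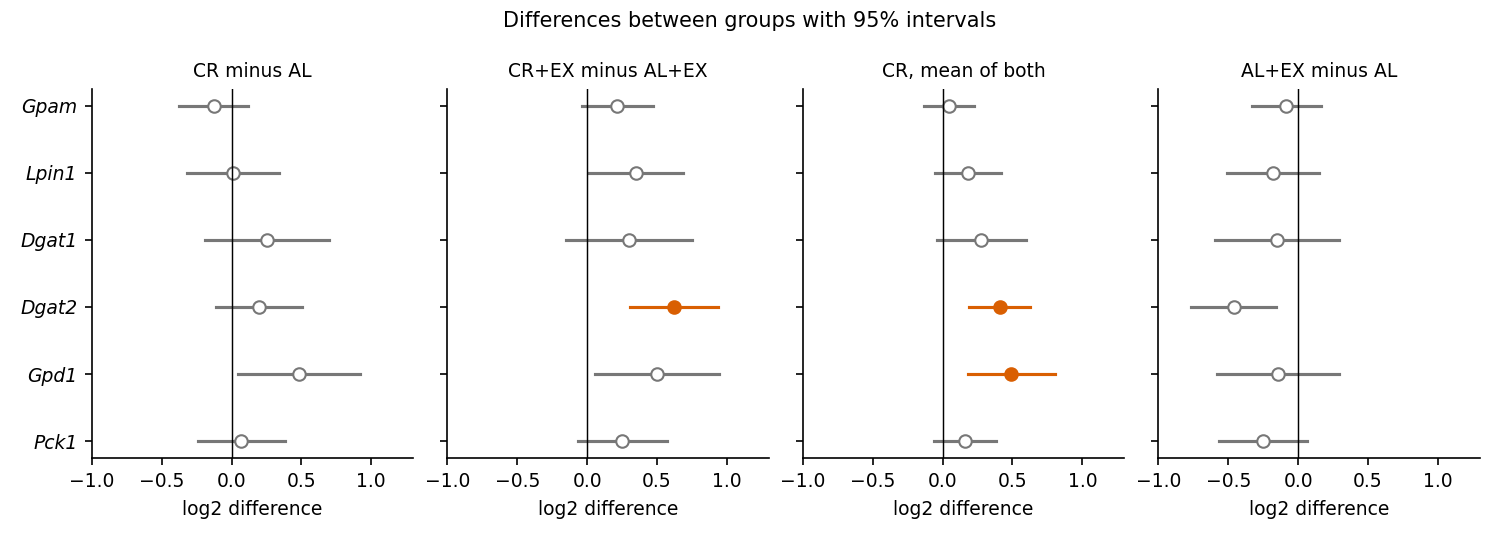
Log2 differences with 95% intervals for the 6 genes in 4 contrasts: CR minus AL, CR+EX minus AL+EX, the mean of both, and AL+EX minus AL. Filled orange points passed an adjusted p under 0.05 and open points did not. Dgat2 and Gpd1 passed in the mean of both, Dgat2 alone in CR+EX minus AL+EX, and no member in the other panels, where the Dgat2 point of AL+EX minus AL is -0.46.

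Between pairs of groups, Dgat2 was called in both comparisons of a restricted group with AL+EX. Among mice with a wheel, CR+EX exceeded AL+EX by 0.62 ± 0.16 (1.54-fold, limma adjusted p = 0.027), and 7 of 9 CR+EX arrays lay above the highest AL+EX array. Dgat2 was the only one of 6 members called here, with 1.65% of all genes called. CR against AL+EX gave a like value, 0.66 ± 0.16 (adjusted p = 0.02), with 8 of 9 CR arrays above the highest AL+EX array and Dgat2 again the only member among 1.97% of genes called. Both contrasts share the AL+EX arrays and are not independent of each other. In both, 10 of 13 adipocyte markers had a positive difference (medians 0.32 for CR+EX and 0.35 for CR) and all 12 skeletal muscle markers a negative one (medians -0.22 and -0.14), with none called. The part of these differences in the Dgat2 values was not tested.

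Among sedentary mice no member passed, and 0.441% of all genes did. In CR minus AL, Gpd1 differed by 0.48 ± 0.21 (limma adjusted p = 0.284), with all 9 CR arrays above the AL median. Dgat2 differed by 0.20 ± 0.15 with a 95% interval of -0.11 to 0.50, which also covers the averaged difference of 0.41. Dgat1 differed by 0.25, Pck1 by 0.07, Lpin1 by 0.01 and Gpam by -0.13. The sign of the Lpin1 value turned with quantile normalization (-0.02). CR+EX minus AL likewise held no called member (0.624% of genes called), with Gpd1 at 0.36, Lpin1 at 0.17, Dgat2 at 0.16, Dgat1 at 0.15, Gpam at 0.13 and Pck1 at 0.00.

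The remaining members in CR+EX minus AL+EX had positive differences that did not pass. Gpd1 differed by 0.50 ± 0.22 (limma adjusted p = 0.253), Lpin1 by 0.35 ± 0.17 (0.309 after adjustment), Dgat1 by 0.30, Pck1 by 0.25 and Gpam by 0.21. In CR minus AL+EX, Gpd1 differed by 0.62 ± 0.22 (limma adjusted p = 0.129), Dgat1 by 0.41, Pck1 by 0.32, Lpin1 by 0.19 and Gpam by -0.04. The Gpam value turned to 0.02 when arrays were centred on their median.

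The 2 Dgat2 calls against AL+EX depended on how the arrays were handled. Quantile normalization ended both (adjusted p = 0.0573 for CR+EX and 0.061 for CR), and so did leaving out the 15 arrays high in B lymphocyte genes, here called lymphoid-rich (0.0933 and 0.149), although the differences of 0.62 and 0.66 hardly moved. The CR+EX call was lost when any of AL+EX replicates 6, 7 and 9 or CR+EX replicates 3, 4, 6 and 7 was left out (0.56 to 0.63, adjusted p from 0.0505 to 0.0762). The CR call was lost without CR replicate 7 (0.58, adjusted p = 0.0534).

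The wheel alone went with no called gene. In AL+EX minus AL, limma called 0 of 9294 genes, with 600 genes (6.46%) at an unadjusted p under 0.05. Dgat2 had the smallest p of the members: its difference was -0.46 ± 0.15 (unadjusted p = 0.00416, adjusted p = 0.633), with 7 of 9 AL+EX arrays below the lowest AL array and all 9 below the AL median. Differences of the other members were negative too, at -0.25 for Pck1, -0.18 for Lpin1, -0.15 for Dgat1, -0.14 for Gpd1 and -0.08 for Gpam. Of the 13 adipocyte markers, 12 had a negative difference too (median -0.28). Skeletal muscle markers had positive differences in 12 of 12 genes (median 0.27) and brown adipocyte markers in 6 of 7 (median 0.31). No marker of these 3 lists was called, and their part in the members' values was not tested. In RNA of whole glands, fewer cells of a type and less RNA per cell cannot be told apart.

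Added to restriction, the wheel gave no called gene either. In CR+EX minus CR, 0 of 9294 genes were called by limma and 83 (0.893%) had an unadjusted p under 0.05. Gpam had the smallest p of the members, with a difference of 0.26 ± 0.13 (unadjusted p = 0.0474, adjusted p = 1.0). Dgat2 differed by -0.03 ± 0.16, and that sign turned with quantile normalization (0.01). Averaged over both diets, the wheel difference of Dgat2 was -0.25 ± 0.11 (unadjusted p = 0.0282), and limma called 0 of 9294 genes, with 266 (2.86%) at an unadjusted p under 0.05.

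Whether restriction acted differently with and without a wheel is the interaction. It was 0.43 ± 0.22 for Dgat2 (95% interval -0.01 to 0.87, unadjusted p = 0.0556) and 0.34 ± 0.17 for Gpam (-0.01 to 0.69, unadjusted p = 0.0584). None of 9294 genes was called by limma, and 295 (3.17%) had an unadjusted p under 0.05. The Dgat2 call with a wheel and its absence without one are therefore not shown to differ. The interaction was positive for 12 of 13 adipocyte markers (median 0.30) and negative for all 12 skeletal muscle markers (median -0.37) and all 7 brown adipocyte markers (median -0.22), with none called.

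Markers of other cell types mostly had differences of one sign under restriction, and few passed the test. All 10 tested B lymphocyte genes had a negative averaged difference, with none called (median -0.41). So did 10 of 11 luminal epithelial genes, with 2 called lower (median -0.38). Negative too were all 4 T lymphocyte genes (median -0.25, none called) and 9 of 12 skeletal muscle genes (median -0.09, 1 called lower). Positive were 9 of 10 fibroblast genes (median 0.23), 6 of 7 basal epithelial genes (0.20) and 8 of 10 endothelial genes (0.11), with none called. Of 9 macrophage genes 7 were positive (median 0.10), with 1 called higher. The group medians of the luminal mean over 13 genes were 10.1 in AL, 9.71 in AL+EX, 9.48 in CR and 9.42 in CR+EX, with ranges of 8.10 to 10.4, 8.08 to 10.5, 8.05 to 10.0 and 8.80 to 10.1. The mean over 12 B lymphocyte genes had group medians of 7.10, 7.10, 6.93 and 7.13 in the same order, with ranges of 6.96 to 10.3, 6.82 to 10.0, 6.79 to 9.54 and 6.56 to 9.36. Of the 13 adipocyte genes, 10 had a positive difference (median 0.21), with the adipokines Retn (0.64) and Rbp4 (0.49) called higher and Lep (-1.39) called lower. None of these 3 passed without the 15 lymphoid-rich arrays, where Retn was at 0.45 (limma adjusted p = 0.0538), Rbp4 at 0.26 (adjusted p = 0.228) and Lep at -1.43 (adjusted p = 0.0563). Lep was also lost without the arrays of high Gapdh ratio (-0.95, adjusted p = 0.137), and Retn and Rbp4 with quantile normalization (adjusted p = 0.0657 and 0.101). The part of these markers in the members' values was not tested.

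The members' values were also taken at other lymphoid contents. With the B lymphocyte mean as a covariate Dgat2 was at 0.37 (limma adjusted p = 0.0178) and Gpd1 at 0.60 (adjusted p = 0.00163), with 10.8% of genes called. With the 15 lymphoid-rich arrays left out, Dgat2 was at 0.45 (adjusted p = 0.0328) and Gpd1 at 0.70 (adjusted p = 0.00551), with 5.35% of genes called. The limit of 8 behind that class was chosen after seeing the data, and a limit of 7.5 ended the Dgat2 call (0.44, adjusted p = 0.0729) but not that of Gpd1 (0.70, adjusted p = 0.0132), with 2.63% of genes called. All 8 arrays of run 4 are lymphoid-rich, so both leave-outs drop that whole run, in which the Gpd1 difference was -0.03.

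**Figure D3:**
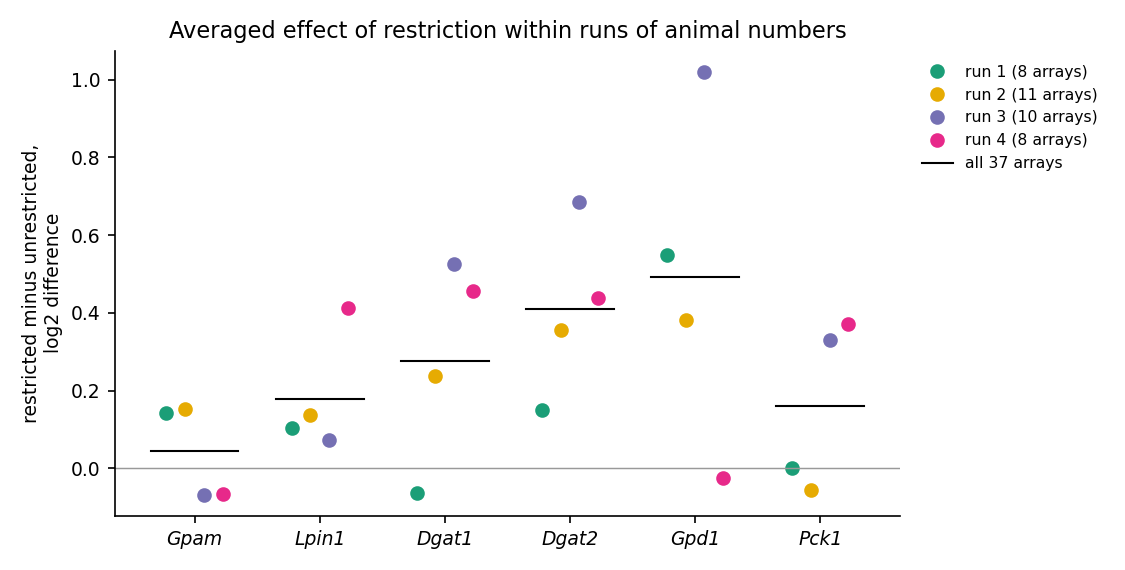
Averaged log2 difference between restricted and unrestricted mice within each run of animal numbers (coloured points, 8, 11, 10 and 8 arrays) and over all 37 arrays (black lines) for the 6 genes. Dgat2 lies above 0 in all 4 runs, from 0.15 to 0.68, while Gpd1 reaches 1.02 in run 3 and lies at -0.03 in run 4.

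Within the 4 runs of animal numbers, the averaged difference of Dgat2 was 0.15, 0.35, 0.68 and 0.44. The Dgat2 difference between CR+EX and AL+EX was 0.29, 0.52, 0.99 and 0.74, and that between AL+EX and AL was -0.26, -0.32, -0.66 and -0.56. Each of these 3 contrasts thus kept its sign in every run. Gpd1 had averaged differences of 0.55, 0.38 and 1.02 in the first 3 runs and of -0.03 in the fourth.

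In the fourth run Gpd1 was high in every group: the group means lay between 13.9 and 14.1 (log2), and its 8 arrays ranged from 12914 to 22914 with a median of 16455. In the other runs the median was 9271 and the highest signal 15098. Those arrays differed in several marker lists. The mean of 7 brown adipocyte markers lay between 11.6 and 12.4 (log2, median 11.9) against 10.0 and 12.1 (median 11.1) in the first 3 runs. The median of the B lymphocyte mean was 10.1 against 7.42, that of 12 skeletal muscle genes 14.4 against 13.8, and that of 11 luminal genes 9.46 against 10.4. Run 1 had a brown adipocyte median nearly as high, 11.7, with a Gpd1 median signal of 8957. Ucp1, the uncoupling protein that defines brown fat, had a median signal of 22697 in the fourth run and 9080 in the others, and was at 1211 or more on every array. The group medians of the brown adipocyte mean were 11.3 in AL, 11.2 in AL+EX, 11.3 in CR and 11.2 in CR+EX, with ranges of 10.0 to 12.4, 10.9 to 12.1, 10.4 to 12.3 and 10.8 to 11.8. By gene, 5 of 7 had a positive averaged restriction difference (median 0.06), 6 of 7 in CR minus AL (median 0.20), 7 of 7 in CR+EX minus AL (median 0.14) and 2 of 7 in CR+EX minus AL+EX (median -0.09), with none called. The part of these markers in the Gpd1 signal was not tested.

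Lpin1 also differed between runs. All 10 arrays of the third run (8327 to 11064) lay above every array of the other runs, whose highest signal was 7826. Averaged differences of Lpin1 within runs were 0.10, 0.14, 0.07 and 0.41, those of Dgat1 -0.06, 0.24, 0.53 and 0.46, those of Pck1 0.00, -0.06, 0.33 and 0.37, and those of Gpam 0.14, 0.15, -0.07 and -0.07. The negative Dgat1 value came from run 1. That run held 4 of the 5 arrays of high Gapdh ratio, AL replicates 1 and 2 and CR+EX replicates 1 and 2. Mean Dgat1 in run 1 was 11.6 (log2) in AL and 11.4 in CR+EX, against 11.9 in AL+EX and 12.0 in CR. The part of the ratio in the Dgat1 value was not tested.

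With the run as a block in limma, 3 members were called higher in the averaged contrast: Dgat2 (0.41, adjusted p = 0.000438), Gpd1 (0.49, adjusted p = 0.00131) and Dgat1 (0.29, adjusted p = 0.0257). This fit called 1743 of the 9294 genes (18.8%). In CR+EX minus AL+EX it called Dgat2, Lpin1 (0.35, adjusted p = 0.014) and Gpd1 (0.50, adjusted p = 0.0365) among 558 genes (6%), against 153 without the block. In CR minus AL it called Gpd1 (0.47, adjusted p = 0.0457) among 573 genes (6.17%), against 41. In CR minus AL+EX it called Dgat2 and Gpd1 (0.63, adjusted p = 0.00844) among 753 genes (8.1%), against 183.

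**Figure D4:**
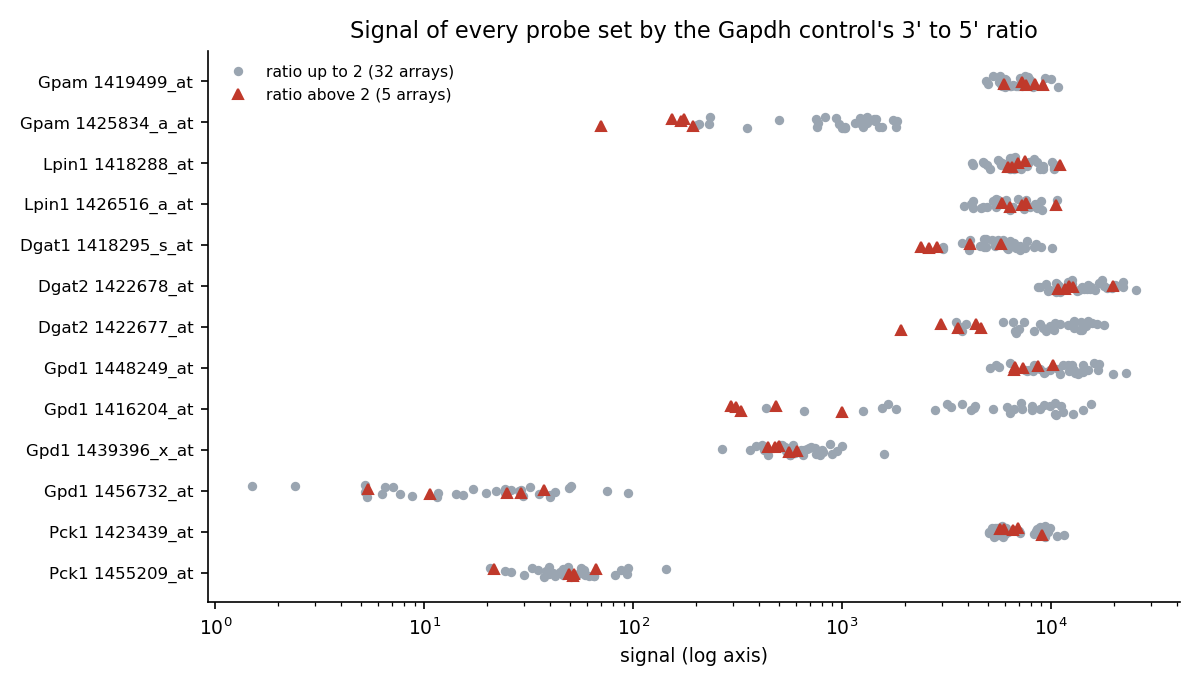
Signal of each of the 13 probe sets on each array, on a log axis. Grey circles are the 32 arrays whose Gapdh control has a ratio of 3' to 5' signal up to 2, and red triangles the 5 arrays above 2. The triangles are the 5 lowest points of Gpam 1425834_a_at, from 70.5 to 192.7, and lie within the other points for Gpam 1419499_at.

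Probe sets of one gene share its RNA and are no replicates, and they did not always give like values. The other probe set of Dgat2 (1422677_at) had medians of 8570 in AL, 6750 in AL+EX, 13750 in CR and 12779 in CR+EX. Its averaged difference was 0.71 ± 0.24 (limma over 20380 probe sets, adjusted p = 0.0758; 4.75% of probe sets called). In that fit the brighter Dgat2 probe set kept its call (adjusted p = 0.0244) and the brightest of Gpd1 did not (adjusted p = 0.058). Without the 5 arrays of high Gapdh ratio both Dgat2 probe sets passed, at 0.71 (adjusted p = 0.0227) and 0.46 (adjusted p = 0.0198). The share of all probe sets called without these arrays is not given here, so these calls stand without a background.

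Low signals of several probe sets lay on the arrays of high Gapdh ratio. The 5 arrays above 2 held the 5 lowest signals of Gpam 1425834_a_at (70.5 to 192.7, against 201.2 to 1837 on the other 32) and 4 of the 5 lowest of Gpd1 1416204_at (292.7 to 1002, median 329.1, against a median of 6497). They held 3 of the 5 lowest signals of Dgat1 and of Dgat2 1422677_at, and none of the 5 lowest of the brightest probe sets of Gpam, Lpin1, Dgat2 and Pck1. CR minus AL for Gpam 1425834_a_at was 1.20 ± 0.51 (limma adjusted p = 0.339; 0.054% of probe sets called) with these arrays and 0.47 without them, while the brighter Gpam probe set gave -0.13. For Gpd1 1416204_at the same contrast was 0.97 with and -0.14 without them.

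The second Lpin1 probe set (1426516_a_at) gave an averaged difference of 0.18 ± 0.12, the same as the first. Gpd1 1439396_x_at, whose suffix marks probes that also match other sequences, gave 0.02 ± 0.15. Gpd1 1456732_at (1.5 to 94.4) and Pck1 1455209_at (20.6 to 144.2) were dim on nearly all arrays, with averaged differences of 0.09 ± 0.21 and -0.10 ± 0.15.

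How closely the 6 genes varied together between animals differed from pair to pair. Correlations were taken over arrays, as deviations from the group means, separately in the 22 arrays low and the 15 arrays high in B lymphocyte genes. There were 15 pairs in 2 classes, 30 relations in all, each with a permutation test of 100000 draws adjusted by Benjamini and Hochberg. In the low class 4 pairs passed, with r positive in 14 of all 15. In the high class 6 passed, with r positive in 11 of all 15. Of these 6, Lpin1 and Gpd1 had a negative r, -0.61 (permutation test, adjusted p = 0.047). For the pairs named, within-run values are given where a run held at least 6 arrays of a class, with no p. The 2 farthest arrays are those farthest from the median of the pair's first named gene. Without them, high-class r was 0.16 for Gpam and Lpin1 (0.62 with them) and 0.30 for Gpam and Dgat2 (0.70 with them). It was -0.33 for Lpin1 and Gpd1, 0.61 for Lpin1 and Dgat1 and 0.695 for Lpin1 and Dgat2. Within run 4 (8 arrays) high-class r was -0.43 for Gpam and Lpin1 and 0.32 for Gpam and Dgat2. There Lpin1 had r of -0.80 with Gpd1, 0.54 with Dgat1 and 0.02 with Dgat2.

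Dgat1 and Dgat2, which catalyse the same last step, passed in both classes. In the low class Pearson's r was 0.80 (permutation p = 1e-05, the smallest these draws can give, adjusted p = 0.0001) and Spearman's rho 0.76 (permutation p = 9e-05). Without the 2 arrays farthest from the median of Dgat1, the first named gene, r was 0.69. Arrays far out in Dgat2 alone stayed in. Within runs r was 0.50 (run 2) and 0.69 (run 3). In the high class r was 0.80 (permutation p = 0.00049, adjusted p = 0.0037) and rho 0.75 (permutation p = 0.0018), 0.58 without the 2 farthest arrays and 0.60 within run 4.

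Dgat2 and Gpd1, the 2 genes called under restriction, went together only in part. In the low class r was 0.81 (permutation p = 1e-05, adjusted p = 0.0001) and rho 0.80 (permutation p = 6e-05), with 0.75 without the 2 farthest arrays, 0.83 within run 2 and 0.77 within run 3. In the high class r was -0.08 (permutation p = 0.78, adjusted p = 0.83) and rho 0.00 (permutation p = 1), with 0.22 within run 4. The difference between the classes was not tested.

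Lpin1 and Pck1 had the highest r of any pair in the low class, 0.87 (permutation p = 1e-05, adjusted p = 0.0001), with a rho of 0.86 (permutation p = 1e-05) and an r of 0.82 without the 2 farthest arrays. Within runs r was 0.75 in run 2 (10 arrays) and 0.16 in run 3 (7 arrays). The part of runs in the pooled value was not tested. In the high class r was 0.16 (permutation p = 0.57, adjusted p = 0.69) and rho 0.21 (permutation p = 0.46), with -0.09 within run 4.

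Because Lpin1 and Pck1 went together in the low class, their promoter windows are shown. Each runs from 250 bases before to 50 bases after the RefSeq start in build GRCm38.p6, read 5′ to 3′ on the strand of the gene, with motif matches in capitals. Pck1 lies at chr2:173152823-173153122 on the plus strand and Lpin1 at chr12:16610917-16611216 on the minus strand.
Pck1: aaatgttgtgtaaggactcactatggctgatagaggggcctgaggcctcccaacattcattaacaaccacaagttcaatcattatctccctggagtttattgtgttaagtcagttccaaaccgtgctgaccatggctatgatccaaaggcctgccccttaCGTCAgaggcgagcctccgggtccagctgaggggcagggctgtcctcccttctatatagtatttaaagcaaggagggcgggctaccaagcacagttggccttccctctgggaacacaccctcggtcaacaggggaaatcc
Lpin1: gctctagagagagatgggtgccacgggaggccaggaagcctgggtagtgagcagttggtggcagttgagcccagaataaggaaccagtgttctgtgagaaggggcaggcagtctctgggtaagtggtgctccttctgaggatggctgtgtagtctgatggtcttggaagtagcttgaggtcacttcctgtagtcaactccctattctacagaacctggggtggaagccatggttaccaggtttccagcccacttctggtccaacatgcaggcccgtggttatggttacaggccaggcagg
Motifs searched on both strands were the CCAAT box (CCAAT), the cyclic AMP response half-site (TGACG), the E-box (CACGTG), a sterol regulatory element (TCACNCCAC) and a PPAR direct repeat. They are found in 37.4%, 20.8%, 7.15%, 1.24% and 0.0396% of the 32851 RefSeq promoter windows of this length. Pck1 held 1 cyclic AMP response half-site, 90 bases before the start, and the Lpin1 window held no match. A match describes letters in this window and no binding was measured.

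Genes most like each member over all 37 arrays were taken by Pearson's r of deviations from the group means, as a description without a test; arrays share lymphoid content and run. Pck1 was most like Lpl (0.85), Adipoq (0.84) and Thrsp (0.84), of which Lpl and Adipoq are adipocyte markers. Gpd1 was most like Cidea (0.82), Clstn3 (0.81) and Letm1 (0.81), and Cidea is one of the brown adipocyte markers. Over the 22 arrays low in B lymphocyte genes the value for Cidea was 0.59 and that for Clstn3 0.39. Lpin1 was most like Tmed4 (0.89), Plin4 (0.87), a lipid droplet coat protein, and Sh3glb1 (0.85). Dgat1 was most like Itga7 (0.91), Pex14 (0.89) and Grina (0.89), and Dgat2 most like Scp2 (0.82), a carrier of lipids, Dgat1 (0.82) and Slc25a39 (0.77). Gpam had the lowest values, with Dlg3 (0.72), Cpsf1 (0.71) and Timm23 (0.70).

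**Figure D5:**
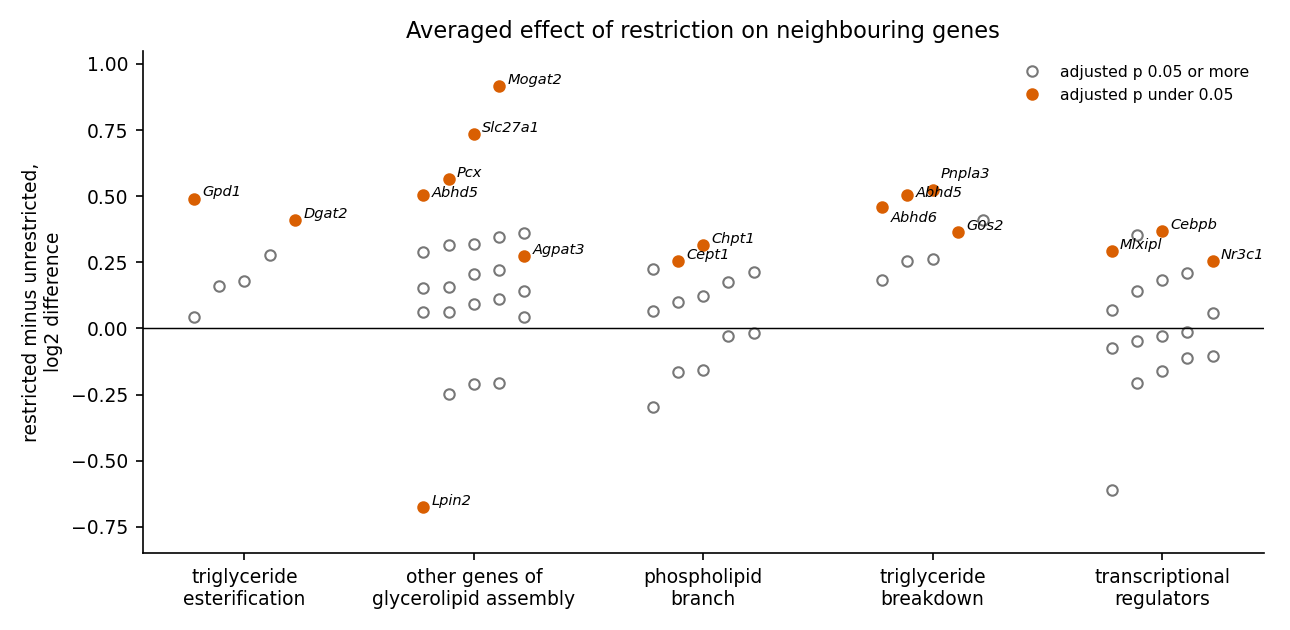
Averaged log2 difference between restricted and unrestricted mice for the 6 genes and for the tested genes of 4 neighbouring lists (24, 13, 8 and 18 genes). Filled orange points with a name passed an adjusted p under 0.05 and open points did not. All 8 genes of triglyceride breakdown lie above 0, and Lpin2 at -0.68 is the only filled point below 0.

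Other genes of glycerolipid assembly also rose under restriction in part. Of 24 tested, 5 were called higher and 1 lower in the averaged contrast, with a median of 0.18. Over all genes 4.19% were called higher and 4.56% lower, and these shares also stand against the counts of the lists that follow. Slc27a1, which imports and activates fatty acids, rose by 0.73 ± 0.15 (limma adjusted p = 0.00159), and Pcx, the pyruvate carboxylase upstream of Pck1, by 0.56 ± 0.13 (adjusted p = 0.00487). Abhd5, which activates triglyceride lipase and is counted among the breakdown genes too, rose by 0.50 ± 0.10 (adjusted p = 0.00216).

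Lpin2, a paralog of Lpin1 with the same phosphatase activity, fell by 0.68 on the log2 scale (SE 0.16, adjusted p = 0.00503), and its 2 other probe sets had the same direction. It stayed called with the run as a block (adjusted p = 0.00086), without the arrays of high Gapdh ratio (-0.67, adjusted p = 0.0179) and without the lymphoid-rich ones (-0.84, adjusted p = 0.0171). Agpat3 (0.27) and Mogat2 (0.92), both acyltransferases, were the others called higher and were named after their values were seen. With the 15 lymphoid-rich arrays left out, 2 genes of this list were called higher and 2 lower, with 5.35% of all genes called.

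Of the 8 tested genes of triglyceride breakdown, 4 were called higher and none lower, and the median was 0.39. Besides Abhd5 these were Abhd6, a monoacylglycerol lipase (0.46 ± 0.13, limma adjusted p = 0.018), G0s2, an inhibitor of the main triglyceride lipase (0.37 ± 0.11, adjusted p = 0.0316), and Pnpla3 (0.52, named after its value was seen). The lipases Pnpla2 (0.25, adjusted p = 0.31) and Lipe (0.18, adjusted p = 0.638) did not pass. With the 15 lymphoid-rich arrays left out, 1 of the 8 passed, with the median at 0.38 and 5.35% of all genes called.

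In the phospholipid branch, which draws on the same diacylglycerol, 2 of 13 genes were called higher and none lower, with a median of 0.10. These were Chpt1 (0.31 ± 0.08, limma adjusted p = 0.00808) and Cept1 (0.26 ± 0.07, adjusted p = 0.0258), which join choline or ethanolamine headgroups to diacylglycerol. With the 15 lymphoid-rich arrays left out, none of the 13 passed in limma, with 5.35% of all genes called.

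Of 18 transcriptional regulators of these genes, 3 were called higher and none lower, with a median of 0.02. Mlxipl, the carbohydrate response factor ChREBP, rose by 0.29 ± 0.09 (limma adjusted p = 0.0271), Nr3c1, the glucocorticoid receptor, by 0.26 ± 0.08 (adjusted p = 0.0305), and Cebpb by 0.37 ± 0.11 (adjusted p = 0.0328). None of the 3 passed without the arrays of high Gapdh ratio (limma adjusted p = 0.0537, 0.064 and 0.168), and Mlxipl (0.0673) and Cebpb (0.0697) were lost with quantile normalization. Pparg (0.21, adjusted p = 0.412) and Srebf1 (0.14, adjusted p = 0.525), regulators of fat cell lipid synthesis, did not pass.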

How the data were processed

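Each value was an Affymetrix signal intensity on a linear scale, as deposited by the authors, and the submitters' processing notes name GCOS version 1. How signals were computed is not given in the sources used here, but the arrays were already scaled, and log2(signal + 16) was used. Gene names came from the platform's table. For each gene the probe set with the highest mean was taken, and the lowest 25% of genes (mean signal below 88.7) were left out, leaving 9294. Group means were fitted to all 37 arrays with limma 3.58.1 in R 4.3.3 (33 residual degrees of freedom, variances that follow the mean signal). Tests were two-sided in 9 contrasts, with the Benjamini-Hochberg adjustment over all genes of a contrast, and called means an adjusted p under 0.05. Errors with ± are standard errors of that fit. A second fit took all 20380 probe sets that name 1 gene. Correlations were computed in Python 3.11.15 with SciPy 1.17.1.

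Members and gene lists were chosen with earlier results of these data known. Named genes were the members, up to 3 risen and 3 fallen genes of each neighbouring list by smallest p in the averaged contrast, and the 3 genes most like each member. Alternatives were other pseudocounts, filters, probe set rules, normalizations and variance models, leaving out arrays, and blocks for runs of animal numbers. Runs were taken as 24 numbers each, and within a run the numbers rise from AL through AL+EX and CR to CR+EX, so place in a run and group cannot be told apart. The B lymphocyte mean showed a gap at 8; a limit of 7.5, set earlier, cut through the lower set, so 8 was used after seeing the data. On simulated data for the averaged contrast with 9294 genes, the fit recovered 16% of 50 genes shifted by 0.25 on the log2 scale, 66% of those shifted by 0.5 and 100% of those shifted by 1. Arrays carry no counts, and their number limits the precision. Each array was 1 animal.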

Additional observations from a re-analysis of the deposited data

Results flagged for a closer look

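In 6 of 52 groups of values (13 probe sets in 4 groups) 1 array stood far from the others of its group, by the gap to its neighbour as a share of the group's range; chance gives about 1 in 20. CR replicate 1 was low for Dgat2 1422677_at (signal 3936 against 9208 for the next array, share 0.561) and for Gpam 1425834_a_at (349.7 against 826.5, share 0.514), and its Gapdh ratio of 1.32 was the highest in the CR group. CR replicate 8, of the fourth run, was high for Gpd1 1448249_at (22914 against 14231, share 0.527). AL+EX replicate 9, also of the fourth run, was high for Pck1 1423439_at (8767 against 6200, share 0.628). AL replicate 6 was high for Gpd1 1439396_x_at (1588 against 785.1, share 0.552). CR replicate 5 was low for the dim Pck1 1455209_at (24.4 against 42.1, share 0.525).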

How the results depend on the processing

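The cause of these changes was not tested. Whole numbers in brackets are all genes called in the same fit, of 9294 unless stated. The averaged restriction contrast had 2 called members (813). It had 1 with no filter (722 of 12393) and with all probe sets averaged (826). It also had 1 with every probe set tested (620) and without arrays of Gapdh ratio above 2 (622). Dgat2 was kept in each of these. Without arrays above 7.5 in B lymphocyte genes (244) Gpd1 was kept and Dgat2 was not (limma adjusted p = 0.0729). Leaving out 1 array gave 1 to 2. CR+EX minus AL+EX went from 1 called member (153) to 0 with averaged probe sets (160) and quantile normalization (149). It also had 0 without arrays above 7.5 (0) or 8 (59) in B lymphocyte genes. It had 3 with the run block, alone (558) or without high Gapdh ratios (364). It had 2 with the run block and without arrays above 8 (255), and 0 to 1 without 1 array. CR minus AL+EX went from 1 to 0 with quantile normalization and without arrays above 7.5. It had 2 with array weights (190), the run block (753), the B lymphocyte covariate (282) or the run block without arrays above 8 (139). It had 3 with the run block without high Gapdh ratios (758), and 0 to 1 without 1 array. Without arrays above 8 (13) its 1 call was Gpd1, at a difference of 0.92, in place of Dgat2. CR minus AL had 1 with the run block (573), against 0 in the main fit (41). CR+EX minus AL and the contrasts of the wheel and the interaction had 0 in all alternatives run. The averaged difference kept its sign for the 6 genes in all 19 alternatives and all 37 fits without 1 array: Dgat2 passed in 18 of 19 (0.37 to 0.56) and Gpd1 in 15 (0.27 to 0.70).

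The signs of these values turned, and none of them passed in the fit that turned it. With averaged probe sets Gpam was at 0.54 in CR minus AL, 0.21 in AL+EX minus AL, 0.33 in CR minus AL+EX, -0.16 in CR+EX minus CR and -0.37 in the interaction. In CR minus AL+EX it was 0.020 with median centring, 0.085 with array weights, 0.043 and 0.082 without arrays above 7.5 and 8, and 0.012 with the run block too. In CR minus AL, Lpin1 was -0.018 with quantile normalization, -0.0096 with the run block and -0.041 with the B lymphocyte covariate, Dgat1 -0.013 with the Gapdh covariate, and Pck1 -0.036 without arrays above 7.5, -0.041 without those above 8 and -0.068 with the run block too. In CR+EX minus CR, Dgat2 was 0.0058 with quantile normalization and 0.0049 with the Gapdh covariate. Without high Gapdh ratios it was 0.084, and 0.030 when the run block was added to that leave-out. Gpd1 was at -0.025 within run 4. Leaving out 1 array gave -0.060 to 0.086 for Lpin1 and -0.012 to 0.14 for Pck1 in CR minus AL, -0.094 to 0.023 for Gpam in CR minus AL+EX and -0.13 to 0.047 for Dgat2 in CR+EX minus CR. The split of all called genes in the averaged contrast moved from 389 higher and 424 lower to 491 and 180 with median centring and to 424 and 313 with quantile normalization.

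The threshold of 8, the Gapdh covariate and the run block with arrays left out were added after seeing the data. No paired analysis was possible because each animal is in 1 group and replicate numbers were given in accession order. In the simulation 16% of the genes shifted by 0.25 were called. It changed 50 genes at each shift, while the real averaged contrast called 813 of 9294, so that share need not hold there. Near this size, Cept1 (0.26) was called in the real contrast and Dgat1 (0.28) was not.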
